A study of Mus musculus with 9 samples.

Results

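Hepatocyte identity depends on a small set of DNA-binding proteins, and 9 of their genes were followed here through mouse livers with and without an immune injury: Hnf4a, Cebpa, Cebpb, Cebpd, Foxa1, Foxa2, Foxa3, Onecut1 and Prox1. Members were found by gene name among the 42188 genes of the deposited tables, in which 8 of the 9 have a row. Cebpd has no row of that name and is not analysed here. The 8 found were all counted in every library and were all among the 14603 genes tested. Each is annotated as protein-coding on the C57BL/6NJ assembly of the tables: Hnf4a on chromosome 2 (173786840 to 173852880, plus strand), Cebpb on chromosome 2 (178519948 to 178521451, plus) and Foxa2 on chromosome 2 (156809520 to 156813612, minus). Cebpa lies on chromosome 7 (36180150 to 36182785, plus), as does Foxa3 (17844270 to 17855071, minus). Foxa1 lies on chromosome 12 (58406052 to 58411534, minus), Onecut1 on chromosome 9 (77125955 to 77157712, plus) and Prox1 on chromosome 1 (203361239 to 203415584, minus).

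HNF4A is a nuclear receptor that binds many active promoters and enhancers of the adult hepatocyte, and its loss turns off much of the secretory and metabolic programme of that cell. C/EBP proteins are leucine zipper factors: C/EBP alpha dominates in the resting liver, whereas C/EBP beta is induced by interleukin-6 and drives acute-phase genes and regeneration. FOXA proteins are forkhead factors that open chromatin for the others, ONECUT1 (also called HNF6) joins a CUT domain to a homeodomain, and PROX1 is a homeodomain protein that acts with HNF4A, often as a corepressor.

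The study compared 3 groups of 3 libraries each, made from liver RNA. MSA_ConA mice received 250 mg/kg of MSA, read here as the mesaconate named in the study's title, into the peritoneum and, 6 h later, 20 mg/kg of ConA (concanavalin A, a T cell-activating plant lectin that injures the liver). ConA mice received that dose of ConA alone, by the tail vein, and Control mice the saline carrier. Livers of both treated groups were taken 12 h after ConA. Labels give every animal as a wild-type C57BL/6 male (C57BL/6J in the growth protocol), aged 8 weeks and weighing 20 to 25 g. The number (1, 2 or 3) in each title is used below to name a library within its group, and values of a group are given in that order.

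The libraries numbered 1 stood apart from the 6 others, in transcripts of sex and strain too, although the labels are the same for all. All mice are labelled male, yet Xist, the RNA of the inactive X chromosome of females, reached only 0.485 CPM or less in number 1, against 666 to 1130.4 CPM in numbers 2 and 3. CPM here means counts per 1000000 of a library total scaled by the trimmed mean of M values (TMM). For Nnt, which is disrupted in the C57BL/6J substrain, number 1 had 29.8 to 34.6 CPM, against 168 to 266 CPM in numbers 2 and 3. For Dbp, a clock output gene, number 1 had 6.01 to 10.3 CPM, against 99.7 to 250.4 CPM in numbers 2 and 3. Sex, strain, hour of collection and number therefore cannot be told apart here, so each result below is given with the number in view, and each group name means the libraries labelled so. Hepatocyte markers were present throughout: of 10 listed 8 are in the table, all counted in every library, with sums of 103647 to 202516 CPM in MSA_ConA, 114368 to 120596 CPM in ConA and 101920 to 127201 CPM in Control. The highest sum was that of MSA_ConA 1, with Alb at 94091, Fgb at 46832, Apoa1 at 25110 and Tat at 15564 CPM.

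Promoter sequence is shown for Cebpb and Foxa3, whose levels set them apart from Cebpa and from Foxa1 and Foxa2. The Cebpa window is printed for comparison, and those of Foxa1 and Foxa2 are not. The 250 bases before the transcription start are RefSeq sequence of build GRCm38.p6, 5′ to 3′ on the gene's own strand, and capitals mark matches to TGACG (the core of a cyclic AMP response element), CCAAT or TATAAA on either strand. The Cebpb window lies at chr2:167688665-167688914 (plus strand), the Cebpa window at chr7:35119043-35119292 (plus strand) and the Foxa3 window at chr7:19023540-19023789 (minus strand).
Cebpb: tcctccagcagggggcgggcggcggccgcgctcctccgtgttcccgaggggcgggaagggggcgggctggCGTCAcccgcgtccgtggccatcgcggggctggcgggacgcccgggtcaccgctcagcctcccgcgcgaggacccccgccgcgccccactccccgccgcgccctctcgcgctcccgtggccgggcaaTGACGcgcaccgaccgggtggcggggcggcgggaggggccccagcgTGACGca
Cebpa: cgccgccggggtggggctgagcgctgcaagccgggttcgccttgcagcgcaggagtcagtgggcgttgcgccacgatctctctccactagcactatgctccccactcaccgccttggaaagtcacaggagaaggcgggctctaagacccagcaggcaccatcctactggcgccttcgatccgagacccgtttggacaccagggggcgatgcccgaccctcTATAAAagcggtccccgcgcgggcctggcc
Foxa3: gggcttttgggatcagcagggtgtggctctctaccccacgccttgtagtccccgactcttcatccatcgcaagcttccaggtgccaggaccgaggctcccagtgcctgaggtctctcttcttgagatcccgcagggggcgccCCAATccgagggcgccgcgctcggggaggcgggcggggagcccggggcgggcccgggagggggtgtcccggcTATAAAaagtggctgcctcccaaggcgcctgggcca

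The Cebpb window held 81.6% G and C and 3 TGACG matches, beginning 180, 53 and 7 bases before the start, the first of them on the opposite strand. Of 32851 mouse promoter windows of the same length, 17.8% held at least 1 TGACG. The Cebpa window held no TGACG and a TATAAA 30 bases before the start, and the Foxa3 window held a CCAAT at 108 bases and a TATAAA at 36 bases. TATAAA occurred in 12.4% and CCAAT in 33.8% of all windows. Searches of both strands for TTGCNNAA (C/EBP), TTCNNNGAA (STAT) and CAAAGTCCA (HNF4) gave no match in any of the 12 windows that RefSeq has for 8 of the 9 members. Of all windows only 9.56%, 7.02% and 0.38% held these motifs, so their absence from so few windows does not set the members apart. TNTTTAC (forkhead) matched on the opposite strand of the Foxa1 window and in no other of the 12, and in 10.9% of all windows. These are matches of letters and not measured binding sites.

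Per unit of length, Cebpa and Hnf4a were among the 3 highest members in every library and Onecut1 the lowest. On the deposited FPKM scale (fragments per kilobase of gene, scaled by a library total), Cebpa averaged 190 ± 29.5 in MSA_ConA, 249.0 ± 42.3 in ConA and 233 ± 70.4 in Control (SD, n = 3 each, as for all group means here). Hnf4a averaged 128 ± 19.5 FPKM in MSA_ConA, 145 ± 14.0 in ConA and 117 ± 30.3 in Control. Onecut1 had means of 2.85 ± 1.99 FPKM in MSA_ConA, 1.64 ± 0.757 in ConA and 3.17 ± 1.12 in Control. Cebpb held the widest range: its means were 242 ± 378 FPKM in MSA_ConA, 438 ± 704 in ConA and 51.5 ± 11.4 in Control, with an SD above the mean in both treated groups.

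Between these ends the order was Prox1 (18.9 ± 5.93 FPKM), Foxa3 (12.98 ± 9.27), Foxa2 (11.3 ± 7.73) and Foxa1 (4.99 ± 2.40) in MSA_ConA. It was Foxa3 (28.9 ± 8.87 FPKM), Prox1 (18.1 ± 9.96), Foxa2 (10.7 ± 4.52) and Foxa1 (6.16 ± 1.73) in ConA, and Foxa3 (22.0 ± 5.24), Foxa2 (19.8 ± 1.89), Prox1 (14.3 ± 8.91) and Foxa1 (7.94 ± 1.27) in Control. Neighbours in these middle ranks differed by less than the larger of their SDs, except Foxa3 and Prox1, and Foxa2 and Foxa1, both in ConA. In the 6 libraries numbered 2 and 3 the first 3 ranks were always Cebpa, Hnf4a and Cebpb. In MSA_ConA 1 and ConA 1 Cebpb ranked first, and in Control 1 it kept the third place.

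**Figure D1:**
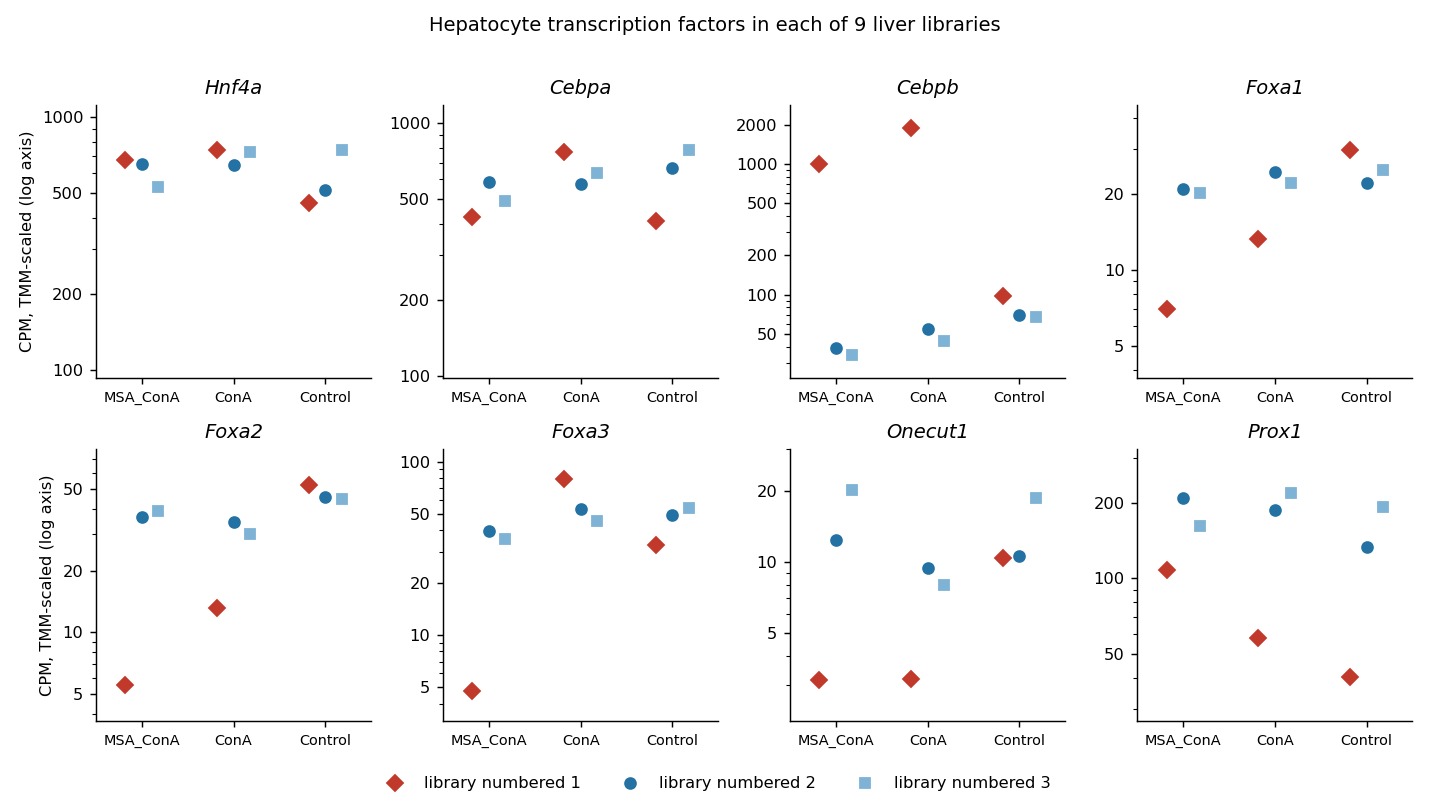
Level of each member in CPM after TMM scaling (log axis) in the 9 libraries, by group from MSA_ConA and ConA to Control, with diamonds for number 1, circles for number 2 and squares for number 3. Cebpb reaches 998 CPM in MSA_ConA 1 and 1873 CPM in ConA 1 while all other libraries stay at or below 97.7 CPM, and Foxa3 drops to 4.74 CPM in MSA_ConA 1 alone.

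The factor at the head of the network, Hnf4a, had the narrowest range of the 8 members. It measured 676, 652 and 528 CPM in MSA_ConA, 741, 645 and 730 CPM in ConA and 459.8, 514 and 744 CPM in Control. The groups overlapped, and the highest of the 9 libraries was 1.62 times the lowest. In edgeR's quasi-likelihood test on all 9 libraries the log2 difference was 0.30 (SE 0.33) for ConA against Control and -0.19 (SE 0.33) for MSA_ConA against ConA, with Benjamini-Hochberg adjusted p = 0.9997 and 1. Its antisense neighbour Hnf4aos overlaps it and had 30 to 248 counts per library, against 5135 to 14320 for Hnf4a, and whether counting used strand is not given in the sources used here. In bulk liver, fewer cells of a type and less RNA per cell cannot be told apart, here and for every member below.

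Cebpa, the C/EBP factor of the resting hepatocyte, stayed within a similar range. Its level was 427, 586 and 493 CPM in MSA_ConA, 773, 578 and 636 CPM in ConA and 412, 666 and 787 CPM in Control. All 3 groups overlapped, and no comparison of groups passed (log2 difference 0.09, SE 0.36, adjusted p = 0.9997 for ConA against Control by edgeR's quasi-likelihood test). The lowest values were those of MSA_ConA 1 and Control 1, with ConA 1 near the top.

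Cebpb, the inducible C/EBP factor, lay above Control in the treated libraries numbered 1 and below it in those numbered 2 and 3. It measured 998, 38.9 and 34.7 CPM in MSA_ConA, 1873, 54.9 and 43.9 CPM in ConA and 97.7, 69.3 and 67.9 CPM in Control. Among libraries numbered 1 both treated libraries were far above the control, whereas among numbers 2 and 3 MSA_ConA was lowest, ConA between and Control highest, without overlap. MSA_ConA lay below ConA in number 1 as in numbers 2 and 3. The number 1 libraries rested on 7582, 19324 and 1312 counts in MSA_ConA, ConA and Control. With 1 library per group there is no test, but the ratio of ConA 1 over Control 1 was 19.2 (95% interval for counting error 18.1 to 20.3), and that of MSA_ConA 1 over Control 1 was 10.2 (9.64 to 10.8). MSA_ConA 1 stood 1.88-fold below ConA 1 (1.83 to 1.93).

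Whether the response of Cebpb differed by number was tested in 1 edgeR model with a mean for each group and number class. The ConA against Control log2 difference was 4.73 larger in number 1 than in numbers 2 and 3 (SE 0.31, Benjamini-Hochberg adjusted p = 0.00024 over all genes), where the spread comes from numbers 2 and 3 only and the lone libraries are assumed to vary like them. The MSA_ConA against ConA difference did not pass (-0.48, SE 0.29, adjusted p = 0.27). In the fit of all 9 libraries by group, Cebpb had log2 differences of 3.07 (SE 1.70) for ConA against Control and -0.88 (SE 1.59) for MSA_ConA against ConA, and neither passed. Without ConA 1 the first became -0.67, and leaving out single libraries moved the second between -4.15 and 2.84. In numbers 2 and 3 alone, ConA against Control gave -0.48 (SE 0.15, adjusted p = 0.4228 by edgeR's quasi-likelihood test) and did not pass. MSA_ConA against Control there gave -0.90 (SE 0.15), with an unadjusted p of 0.00045 and an adjusted p of 0.0829 by the same test. DESeq2 put the same comparison past the threshold (-0.90, adjusted p = 0.00012), as did edgeR without the filter on low counts (-0.92, adjusted p = 0.00121).

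The table holds 1 further row of the C/EBP family without a gene name, annotated as a pseudogene of 1181 bases on chromosome 16 (13140283 to 13141463, plus strand, C57BL/6NJ assembly) between Mzt2 and Spidr. It was chosen after its values were seen and is given no gene name here. It had 70.3, 1.38 and 2.57 CPM in MSA_ConA, 229, 2.27 and 2.27 CPM in ConA and 4.54, 3.70 and 2.13 CPM in Control. As for Cebpb, the high values were those of ConA 1 and MSA_ConA 1. Because it was chosen for these values, no test is given for it.

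The FOXA genes were all at their lowest of the 9 libraries in MSA_ConA 1 but parted in ConA 1, where only Foxa3 was above Control 1. Foxa1 measured 6.98, 21.0 and 20.2 CPM in MSA_ConA, 13.3, 24.5 and 22.0 CPM in ConA and 29.9, 22.1 and 24.9 CPM in Control. Foxa2, whose product also controls bile acid and fasting genes, measured 5.53, 36.6 and 39.2 CPM in MSA_ConA, 13.2, 34.4 and 30.0 CPM in ConA and 52.3, 45.6 and 44.5 CPM in Control. In number 1 both genes ran in the same order, MSA_ConA lowest and Control highest, and for both the Control library numbered 1 was the highest of the 9. Foxa2 was also below its Control range in every treated library numbered 2 or 3, by -0.49 in ConA (log2, SE 0.13, unadjusted p = 0.00708, adjusted p = 0.4228 by edgeR's quasi-likelihood test), a difference that did not pass.

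Foxa3, the FOXA gene with the highest FPKM in most of these livers, ran differently. It measured 4.74, 39.7 and 35.7 CPM in MSA_ConA, 79.1, 53.5 and 45.6 CPM in ConA and 32.9, 48.9 and 54.1 CPM in Control. ConA 1 was the highest and MSA_ConA 1 the lowest of the 9 libraries, which rests on 36 counts. In number 1, MSA_ConA was 16.7-fold lower than ConA (interval for counting error 11.9 to 24.0) and 6.94-fold lower than Control (4.94 to 10.04), while ConA was 2.40-fold higher than Control (2.14 to 2.70). Foxa2 over the same pairs was 2.38-fold lower (1.67 to 3.45), 9.45-fold lower (6.92 to 13.2) and, in ConA 1 against Control 1, 3.97-fold lower (3.30 to 4.80).

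By the test of the difference between number classes, the ConA against Control log2 difference in number 1 exceeded that in numbers 2 and 3 by 1.32 for Foxa3 (SE 0.26, adjusted p = 0.00939) and fell short of it for Foxa2 (-1.50, SE 0.24, adjusted p = 0.00497) and Foxa1 (-1.15, SE 0.26, adjusted p = 0.0156). For MSA_ConA against ConA, which shares the ConA libraries with that test, the difference was -3.66 for Foxa3 (SE 0.29, adjusted p = 0.00062) and -1.49 for Foxa2 (SE 0.27, adjusted p = 0.0125). For Foxa1 it was -0.75 (SE 0.28, adjusted p = 0.102) and did not pass. All are edgeR quasi-likelihood tests with Benjamini-Hochberg adjustment.

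Of the homeodomain members, Prox1 was set apart chiefly by number, whereas Onecut1 was low in MSA_ConA 1 and ConA 1 but not in Control 1. Onecut1 measured 3.16, 12.3 and 20.1 CPM in MSA_ConA, 3.20, 9.43 and 7.94 CPM in ConA and 10.3, 10.6 and 18.7 CPM in Control, with 24 and 33 counts in MSA_ConA 1 and ConA 1. Prox1 measured 107, 209 and 161 CPM in MSA_ConA, 57.9, 186 and 218 CPM in ConA and 40.4, 133 and 191 CPM in Control. Every library numbered 1 was below every library numbered 2 or 3 for Prox1, and within number 1 its order was MSA_ConA highest and Control lowest. MSA_ConA 1 was 2.66-fold above Control 1 for Prox1 (2.38 to 2.97) and 3.27-fold below it for Onecut1 (2.11 to 5.28). Among libraries numbered 3, Onecut1 was the only member to differ by at least 2-fold, being lower in ConA 3 than in Control 3 (as were 0.493% of all genes) and higher in MSA_ConA 3 than in ConA 3 (as were 3.55%). No member did so among those numbered 2, where 2.14% of genes did for ConA over Control, 1.60% for MSA_ConA over ConA and 5.06% for MSA_ConA over Control. Prox1os, antisense to Prox1, had 47 to 189 counts, against 542 to 3849 for Prox1.

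**Figure D2:**
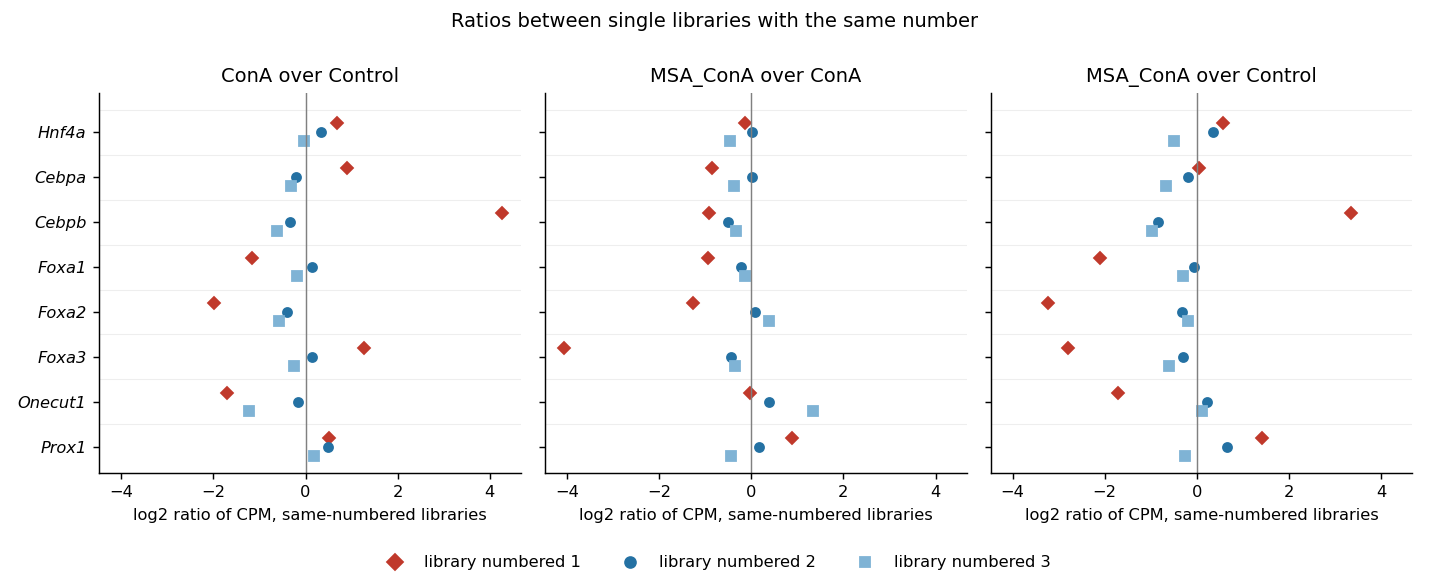
Log2 ratio of CPM between libraries of the same number for ConA over Control, MSA_ConA over ConA and MSA_ConA over Control (diamonds number 1, circles number 2, squares number 3). The ratios of numbers 2 and 3 stay near 0 for most members, while those of number 1 spread from 19.2-fold higher (Cebpb, ConA 1 over Control 1) to 16.7-fold lower (Foxa3, MSA_ConA 1 over ConA 1).

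Ratios of members within 1 library do not depend on how libraries are scaled. The Cebpb to Cebpa ratio of FPKM was 4.09, 0.116 and 0.123 in MSA_ConA, 4.25, 0.166 and 0.121 in ConA and 0.415, 0.182 and 0.151 in Control. Cebpb transcripts thus exceeded those of Cebpa per length in MSA_ConA 1 and ConA 1 and in no other library, and the ratio was about the same in both although each gene was lower in MSA_ConA 1. The Foxa3 to Foxa2 ratio was 0.997, 1.26 and 1.06 in MSA_ConA, 6.98, 1.81 and 1.77 in ConA and 0.733, 1.25 and 1.42 in Control. It was higher in each ConA library than in any library of the other groups, with 1.77 in ConA 3 against 1.42 in Control 3. Other ratios of members were computed too, and how often pairs of genes separate a group in this way was not counted. No test of this ratio was run.

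Relative to Hnf4a, the Foxa2 level per length was 0.0167, 0.114 and 0.151 in MSA_ConA, 0.0362, 0.109 and 0.0838 in ConA and 0.232, 0.181 and 0.122 in Control. Prox1 over Hnf4a was 0.0913, 0.184 and 0.176 in MSA_ConA, 0.0449, 0.166 and 0.172 in ConA and 0.0505, 0.149 and 0.148 in Control, so that number 1 was lowest in each group. Cebpa over Hnf4a ranged only from 1.16 in MSA_ConA 1 to 2.37 in Control 2.

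**Figure D3:**
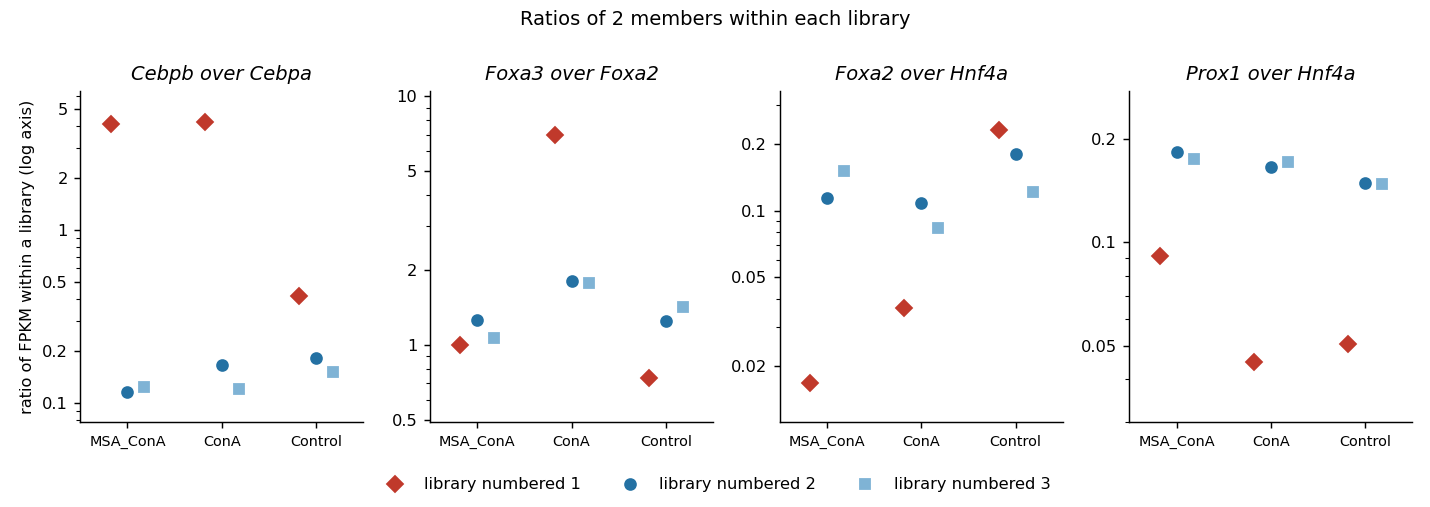
Ratios of deposited FPKM between members within each library (log axis), by group from MSA_ConA and ConA to Control. Cebpb over Cebpa is 4.09 in MSA_ConA 1 and 4.25 in ConA 1 and below 1 elsewhere, and Foxa3 over Foxa2 is highest in ConA 1 at 6.98.

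Across the list, 0 of 8 members passed in any comparison of groups over all 9 libraries by edgeR's quasi-likelihood test, and so did 0 of 14603 genes (0%). Unadjusted p under 0.05 was reached by 0 of the 8 members in each, and by 563 genes for ConA against Control, 248 for MSA_ConA against ConA and 730 for MSA_ConA against Control. DESeq2 called 2, 1 and 64 genes in those comparisons and limma on log2(FPKM + 1) called 0, none of them a member. In numbers 2 and 3 alone edgeR called 0 of 14851 genes (0%) and DESeq2 93, 13 and 1251, with Cebpb, in MSA_ConA against Control, the single member among them. In each of those 3 comparisons 3 members had an unadjusted p under 0.05, and 1744, 783 and 3598 genes did so.

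Between number classes, with group in the model, 3 of 8 members passed, where 38.3% of all genes did (5593 of 14603): 1 member was higher in number 1, against 19.1% of all genes, and 2 were lower, against 19.2%. Cebpb was higher in number 1 by 4.12 (log2, SE 0.77, adjusted p = 0.00524), Prox1 was lower by -1.50 (SE 0.29, adjusted p = 0.00588) and Onecut1 by -1.34 (SE 0.40, adjusted p = 0.0311), all by edgeR's quasi-likelihood test. Onecut1 lost its call in 6 of the 9 fits that left out 1 library, with adjusted p of 0.0525 to 0.115. For Foxa2 the difference was -1.08 (SE 0.48, adjusted p = 0.103) and for Foxa1 -0.59 (SE 0.33, adjusted p = 0.185), but without Control 1 they were -1.95 (adjusted p = 0.00281) and -1.17 (adjusted p = 0.00455). With library totals in place of TMM factors the median of all genes moved to -0.81, against -0.10 with TMM, and the split of called genes became 1082 higher and 5462 lower, against 2786 higher and 2807 lower with TMM. On that scale Hnf4a (-0.77, adjusted p = 0.0116) and Cebpa (-0.97, adjusted p = 0.009) also passed as lower in number 1, close to the shift of all genes.

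The ConA against Control effect differed between number classes for 5 of 8 members, where it did so for 31.0% of all genes (4534): it was larger in number 1 for 3 members, against 15.6% of all genes, and smaller for 2, against 15.4%. Over all genes that is 2284 larger and 2250 smaller, where library totals gave 1325 larger and 4159 smaller. The MSA_ConA against ConA effect differed for 2 of 8 members, where 18.7% of all genes did so (2726): it was larger in number 1 for 0 members, against 8.61% of all genes, and smaller for 2, against 10.1%. Over all genes that is 1257 larger and 1469 smaller, where library totals gave 762 larger and 2044 smaller. The members' median log2 difference was 0.38 in the first test, against -0.09 over all genes, and -0.72 in the second, against -0.01. Cebpa was the weakest of the calls (1.17, SE 0.30, adjusted p = 0.0234): it was lost in 3 fits that left out 1 library (adjusted p of 0.0658 to 0.0839) and with library totals (0.62, adjusted p = 0.0844).

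**Figure D4:**
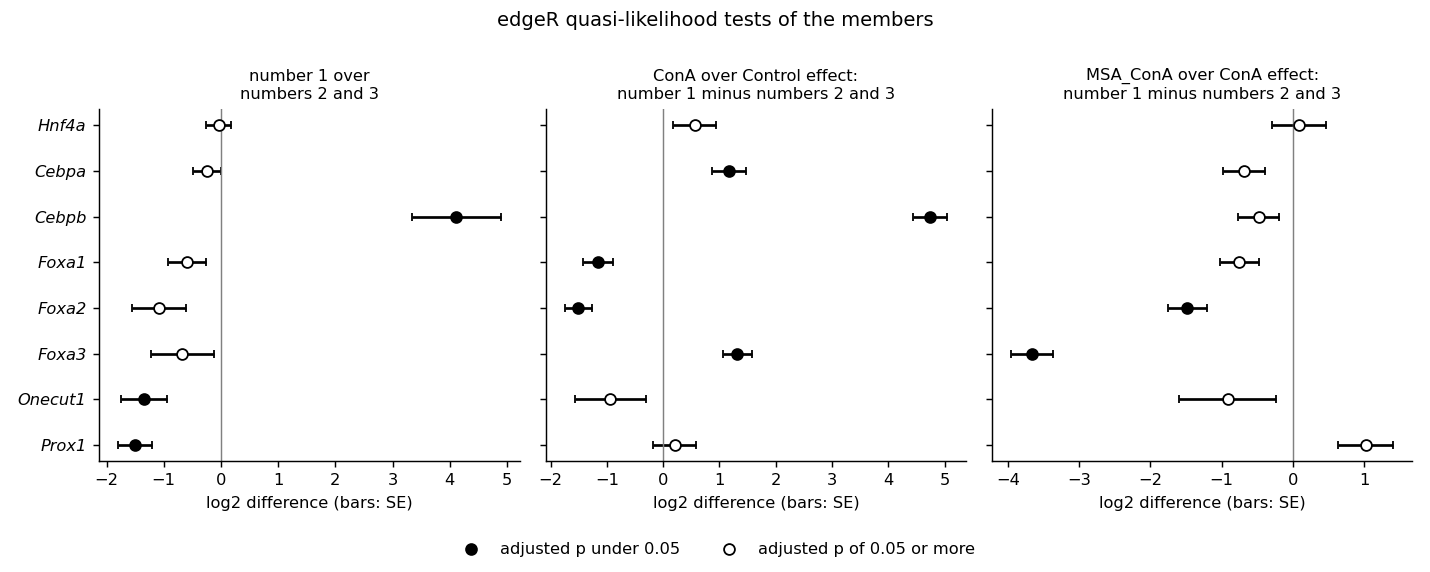
Log2 difference with its SE for each member in the test of number 1 against numbers 2 and 3 and in both tests of whether a group effect differs between them, with filled points for an adjusted p under 0.05. Cebpb stands at 4.12 and 4.73 in the first pair of panels, and Foxa3 at -3.66 in the MSA_ConA against ConA panel.

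Past 2-fold between single libraries numbered 1 (CPM + 1, at least 10 CPM in the higher), ConA 1 over Control 1 had 2 members higher and 3 lower, with 24.4% of 8930 genes higher and 16.6% lower. MSA_ConA 1 over ConA 1 had 0 higher and 2 lower (Foxa2 and Foxa3) of the 7 members that reached 10 CPM. Of 8569 genes, 14.2% were higher there and 17.8% lower. MSA_ConA 1 over Control 1 had 2 higher and 4 lower, with 22.4% of 8670 genes higher and 16.6% lower. In that pair and in ConA 1 over Control 1 all 8 members reached 10 CPM. With library totals, ConA 1 over Control 1 had 1 member higher and 2 lower (15.4% and 29.1% of 8385 genes), and MSA_ConA 1 over ConA 1 had 0 higher and 3 lower (9.12% and 21.5% of 7250 genes). MSA_ConA 1 over Control 1 had 1 of 7 members higher and 3 lower (10.1% and 35.1% of 8056 genes). On that scale the MSA_ConA 1 over Control 1 ratio was 0.884 for Hnf4a (1.47 with TMM) and 0.624 for Cebpa (1.04 with TMM), while every other member kept its direction in that pair.

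Lists of genes that work with or under the members were read in the same tests. Among all genes tested, 19.1% rose and 19.2% fell in number 1, and the ConA against Control effect was larger there for 15.6% and smaller for 15.4%. Of 16 tested acute-phase genes driven by C/EBP factors, 11 rose and 0 fell in number 1 (median log2 2.73, all genes -0.10), and the ConA against Control effect was larger in number 1 for 15 and smaller for 0 (median 2.45, all genes -0.09). Lcn2, an iron-siderophore binding protein, measured 6026, 9.12 and 8.24 CPM in MSA_ConA, 10626, 11.8 and 7.43 CPM in ConA and 58.6, 9.86 and 12.2 CPM in Control. Saa3, a serum amyloid A gene, measured 60.2, 0.774 and 1.13 CPM in MSA_ConA, 6613, 0.67 and 1.02 CPM in ConA and 27.3, 1.04 and 1.14 CPM in Control. Both were highest in ConA 1, with MSA_ConA 1 next and Control 1 after it. Orm3, an orosomucoid, measured 164 CPM in MSA_ConA 1, 233 CPM in ConA 1 and at most 11.8 CPM elsewhere.

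Of 10 tested genes of cytokine input to C/EBP genes, 5 rose and 0 fell in number 1 (median 1.08). The ConA against Control effect was larger in number 1 for 8 and smaller for 1 (median 2.89). The list covers interleukin-6 and STAT3 signalling and also holds Il1r1 and Il1rap, of interleukin-1 signalling. Socs3, the feedback inhibitor of STAT3 signalling, measured 891, 4.37 and 2.99 CPM in MSA_ConA, 1326, 5.98 and 3.97 CPM in ConA and 17.9, 5.42 and 7.53 CPM in Control. Il1r1, the interleukin-1 receptor, measured 1433 CPM in MSA_ConA 1, 1092 CPM in ConA 1, 48.5 CPM in Control 1 and at most 29.2 CPM elsewhere. The kinase gene Pim1 measured 121 CPM in MSA_ConA 1, 1038 CPM in ConA 1, 14.7 CPM in Control 1 and at most 12.1 CPM elsewhere. For all 3 genes both treated libraries numbered 1 were the highest of the 9, with MSA_ConA 1 above ConA 1 for Il1r1 alone. Others of the list did not share that pattern: Lifr, a receptor of the interleukin-6 cytokine family, measured 566, 439 and 309 CPM in MSA_ConA, 209, 322 and 377 CPM in ConA and 539, 276 and 385 CPM in Control. It was chosen after its values were seen, and ConA 1 was its lowest library.

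Among 9 tested partners and inhibitors of C/EBP proteins, 6 rose and 1 fell in number 1 (median 1.77), and the ConA against Control effect was larger in number 1 for 6 (median 1.39). Atf3, a stress-induced leucine zipper factor, measured 195, 2.32 and 5.61 CPM in MSA_ConA, 1655, 5.10 and 2.72 CPM in ConA and 7.52, 2.61 and 3.74 CPM in Control. Atf4, which directs the response to amino acid shortage, measured 602, 63.0 and 74.2 CPM in MSA_ConA, 372, 85.1 and 73.7 CPM in ConA and 219, 109 and 84.5 CPM in Control. Atf3 was highest in ConA 1, whereas Atf4 was highest in MSA_ConA 1 and was above its numbers 2 and 3 in Control 1 too. Some neutrophil markers moved with these lists. The 8 listed summed to 61.2, 4.20 and 4.58 CPM in MSA_ConA, 410, 5.67 and 2.72 CPM in ConA and 9.68, 6.88 and 3.48 CPM in Control. S100a9 measured 28.4 CPM in MSA_ConA 1 and 261 CPM in ConA 1, and S100a8 17.6 and 111 CPM. Like Cxcr2 and Retnlg, they were above Control 1 in both libraries. In MSA_ConA 1, Csf3r (5.79 CPM, 6.40 CPM in Control 1), Mpo (0 and 0.447 CPM), Elane and Ly6g were not. Mpo measured 0.969 CPM in ConA 1. The part of neutrophils in the levels of Cebpb and its lists was not tested.

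Of 23 tested genes that depend on HNF4A, 7 rose and 4 fell in number 1 (median -0.06, all genes -0.10), where all genes also split about evenly. The ConA against Control effect was larger in number 1 for 2 of them and smaller for 3, a share below the 31.0% of all genes. Cyp7a1, which sets the rate of bile acid synthesis, measured 3.16, 1003 and 852 CPM in MSA_ConA, 6.11, 607 and 503 CPM in ConA and 51.0, 438 and 548 CPM in Control. Cyp27a1, a sterol hydroxylase of the same pathway, went the other way, with 2237, 376 and 226 CPM in MSA_ConA, 1235, 287 and 266 CPM in ConA and 831, 308 and 313 CPM in Control. Apoa1, the main protein of high-density lipoprotein, measured 25110 CPM in MSA_ConA 1, 9816 CPM in ConA 1 and 12966 CPM in Control 1, against 2472 to 6928 CPM in the 6 other libraries.

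Of 14 tested metabolic genes under FOXA and C/EBP alpha, 5 rose and 2 fell in number 1 (median 0.04). The ConA against Control effect was larger in number 1 for 3 and smaller for 1 (median 0.32, all genes -0.09). For MSA_ConA against ConA it was larger for 6 and smaller for 0 (median 1.00, all genes -0.01). Of all genes 8.61% were larger and 10.1% smaller in that test, which is not given here for the other lists. Igfbp1, an insulin-repressed secreted protein, measured 3226, 5.09 and 3.45 CPM in MSA_ConA, 5340, 16.3 and 5.96 CPM in ConA and 46.8, 1.46 and 5.87 CPM in Control. Tat, tyrosine aminotransferase, measured 15564, 767 and 599 CPM in MSA_ConA, 5474, 999 and 984 CPM in ConA and 1467, 982 and 931 CPM in Control. Sds, serine dehydratase, measured 2318 CPM in MSA_ConA 1, 685 CPM in ConA 1 and 315 CPM in Control 1, against 50.1 to 153 CPM elsewhere. Tat and Sds were highest in MSA_ConA 1 and Igfbp1 in ConA 1.

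Among 27 other liver-enriched transcription factors tested, 4 rose and 9 fell in number 1 (median -0.34). Onecut2, the paralogue of Onecut1, measured 14.0, 117 and 98.9 CPM in MSA_ConA, 21.2, 91.9 and 110 CPM in ConA and 52.7, 86.7 and 86.5 CPM in Control. As for Onecut1, MSA_ConA 1 and ConA 1 were the lowest libraries, and here Control 1 was below numbers 2 and 3 as well. Nr2f2 (COUP-TFII), an orphan receptor that competes at HNF4A sites, measured 8.30, 37.4 and 45.4 CPM in MSA_ConA, 4.36, 36.5 and 41.9 CPM in ConA and 17.1, 37.1 and 35.7 CPM in Control. Cux2, a CUT factor made in female mouse liver, measured 3.56 CPM in MSA_ConA 1, 0.388 CPM in ConA 1 and 0.447 CPM in Control 1, against 25.6 to 65.6 CPM elsewhere.

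Of 12 tested fetal and biliary genes that mature hepatocytes keep low, 2 rose and 1 fell in number 1 (median 0.61, all genes -0.10), a share below the 38.3% of all genes. Sox9, a biliary and progenitor factor, measured 37.8, 1.55 and 2.57 CPM in MSA_ConA, 635, 2.37 and 1.65 CPM in ConA and 3.50, 1.98 and 2.34 CPM in Control. Krt19, a keratin of bile duct cells, did not share that pattern, with 1.19, 1.11 and 2.57 CPM in MSA_ConA, 3.97, 1.55 and 2.27 CPM in ConA and 4.84, 0.991 and 1.04 CPM in Control. Afp, the fetal albumin-like protein, fell by 2.11 on the log2 scale (SE 0.55, adjusted p = 0.0185) in number 1 by edgeR's quasi-likelihood test.

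Clock genes also differed by number: of 17 tested, 4 rose and 6 fell in number 1 (median -0.28). Per3 reached 6.78 CPM at most in number 1, against 96.3 to 135 CPM in numbers 2 and 3. Nfil3, a repressor that shares sites with Dbp, measured 568 CPM in MSA_ConA 1, 486 CPM in ConA 1 and 29.6 CPM in Control 1, against 8.39 to 15.6 CPM elsewhere. Of 9 sex and strain transcripts 4 rose and 5 fell in number 1, among them Mup21 (251 to 668 CPM in number 1, at most 1.44 CPM elsewhere). The division by number was chosen with earlier results known, in which Xist and strain genes divided the libraries. These calls therefore add no support for that division. The part of clock, sex and strain genes in the levels of the members was not tested.

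The genes most like each member over the 9 libraries were found by the smallest root mean square difference of log2 CPM after each gene was centred on its own mean. For Cebpb they were Tnfrsf12a (0.28) and Angptl4 (0.30), where the median over 13036 genes was 2.11. Tnfrsf12a measured 104, 3.26 and 4.33 CPM in MSA_ConA, 233, 6.34 and 4.596 CPM in ConA and 6.999, 5.16 and 5.92 CPM in Control. For Foxa3 they were E430018J23Rik (0.16) and Iba57 (0.24), with Iba57 at 1.45 CPM in MSA_ConA 1 and 9.83 to 15.8 CPM in the other libraries. For Foxa2 they were Arhgef19 (0.16) and Trmt1l (0.17), and for Foxa1 Klhl22 (0.08) and Slc52a2 (0.11). Prox1 was matched most closely by Sft2d2 (0.12) and Hook1 (0.13), Hnf4a by Ddb1 (0.09) and Jarid2 (0.10), Cebpa by F8a (0.12) and Cyp2d26 (0.12), and Onecut1 by Gm5093 (0.32) among those reported here. Likeness here is one of levels over the same 9 libraries, which share their division by number.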

How the data were processed

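Liver RNA of 9 mice was sequenced, 3 per group. Per the labels' protocols, RNA was taken up in Trizol and libraries were built with an Illumina kit. The authors deposited raw counts per gene and FPKM, which equalled the deposited counts divided by gene length and by 1 size-factor total per library. The submitters' processing notes list the builds mm8 and mm10 and the tool Bowtie 0.12.2, with no role; the tables' coordinates are those of the C57BL/6NJ assembly. How reads were assigned to genes, strand included, is not stated in the sources used here. Columns headed by M were matched to MSA_ConA, and 0 columns belonged to no sample.

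Libraries held 13294600 to 17276391 counts. Counts were tested with edgeR 4.0.16 (quasi-likelihood, TMM factors of 0.571 to 1.26, default expression filter, R 4.3.3), with Benjamini-Hochberg adjustment over all 14603 genes and a threshold of 0.05. The group fit had 6 residual degrees of freedom, the fit of number 1 against numbers 2 and 3 had 5 and the fit with a mean per group and number class had 3. DESeq2 1.42.0, limma 3.58.1 on log2(FPKM + 1), other scalings, no filter, a replicate block and leaving out each library were alternatives. A p-value weighs a difference against the spread between these libraries only. In the fit with a mean per group and number class that spread comes from numbers 2 and 3. Intervals for single libraries are exact at 95% and cover counting error only. Same-numbered libraries had correlations of 0.303 to 0.713 in their deviations from the group means, over the bound of 0.1. A fit with number as a replicate block was therefore an alternative, while the main comparisons of groups did not pair libraries. Numbers 2 and 3 correlated across groups as highly (0.313 to 0.681), so this check separates number 1 from the rest rather than number 2 from number 3.

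Members, gene lists and the division by number were chosen with earlier results of these data known. The text names all members, the 3 called genes of each list with the largest change between number classes, and the 2 genes most like each member (prior count 2), except that some genes the rule names are not reported here. Promoter windows are RefSeq sequence of GRCm38.p6, used for letters only. Scripts were tested on simulated counts.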

Additional observations from a re-analysis of the deposited data

Results flagged for a closer look

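For 5 members the effect of ConA against Control differed between the libraries numbered 1 and those numbered 2 and 3, by edgeR's quasi-likelihood test of the difference itself with Benjamini-Hochberg adjustment. The log2 effect was larger in number 1 by 4.73 for Cebpb (adjusted p = 0.00024), by 1.32 for Foxa3 (adjusted p = 0.00939) and by 1.17 for Cebpa (adjusted p = 0.0234). The same difference was -1.50 for Foxa2 (adjusted p = 0.00497) and -1.15 for Foxa1 (adjusted p = 0.0156). For 2 members the effect of MSA_ConA against ConA differed in the same way, by -3.66 for Foxa3 (adjusted p = 0.00062) and by -1.49 for Foxa2 (adjusted p = 0.0125). Each value rests on 1 library numbered 1 per group, and sex, strain and hour transcripts separate those libraries from the others, so number and these properties cannot be told apart.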

How the results depend on the processing

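For the 8 members in the 3 tests that involve number, 302 of 328 values under alternative settings kept their direction and their side of the threshold, 10 lost a call, 6 gained one and 10 changed sign. The comparisons of groups are not in that count: there Cebpb changed sign without ConA 1 (-0.67 for ConA against Control, 3.07 with it) and ran from -4.15 to 2.84 for MSA_ConA against ConA, and in numbers 2 and 3 alone it gained a call for MSA_ConA against Control with DESeq2 and with no filter. Counts of called genes moved past 1.5 times with DESeq2 over all 9 libraries (2 genes for ConA against Control, 1 for MSA_ConA against ConA and 64 for MSA_ConA against Control, each 0 by edgeR), and in numbers 2 and 3 alone with DESeq2 (93, 13 and 1251) or with no filter (308, 290 and 1396). The count for the MSA_ConA against ConA difference ran from 1368 (without ConA 3) to 2649 when single libraries were left out, and was 1631 without ConA 2. The number 1 effect changed sign for Hnf4a with RLE factors (0.016); leaving out single libraries gave -0.17 to 0.14 for Hnf4a, -0.58 to 0.0033 for Cebpa and -1.60 to 0.059 for Foxa3. The ConA against Control difference of Prox1 was -0.35 with library totals and -0.11 to 0.42 under leave-outs, and the MSA_ConA against ConA difference of Hnf4a was -0.19 and -0.11 to 0.25. None of these signs belonged to a called member, and the cause was not tested. With library totals Cebpa (-0.96, adjusted p = 0.0361) and Foxa1 (-1.03, adjusted p = 0.0396) also passed the MSA_ConA against ConA difference test by edgeR. Pairing libraries by number, as a replicate block, left 4353 genes called between number classes, 3623 and 1843 for the differences and 0 for each comparison of groups, and changed no member's call. Leaving out a library numbered 1 removes a mean of the difference tests, so these give no value there, except for the group not compared. Onecut1, at 24 and 33 counts in MSA_ConA 1 and ConA 1, and Foxa3, at 36 counts in MSA_ConA 1, are the members that depth limits most.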

Other observations

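Cebpe, a C/EBP factor of granulocyte precursors, was counted in the libraries numbered 1 alone, with 1.84 CPM (14 counts) in MSA_ConA 1, 4.07 CPM (42 counts) in ConA 1 and 19.3 CPM (259 counts) in Control 1. It had no count in the 6 libraries numbered 2 and 3. Its highest level was thus in the untreated library, in which the neutrophil markers summed to 9.68 CPM, against 61.2 CPM in MSA_ConA 1 and 410 CPM in ConA 1.

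Markers of other tissues were counted in several treated libraries. The summed CPM of 10 markers of skeletal muscle was 121, 313 and 4255 in MSA_ConA 1, 2 and 3, then 3.20, 332 and 56.9 in ConA 1, 2 and 3, against 2.19 at most in Control. In MSA_ConA 1 that sum was almost wholly Atp2a1 (119 CPM), with Acta1 at 0.263 CPM and Ckm, Myh4 and Myh1 at 0, whereas Acta1 reached 1469 CPM in MSA_ConA 3. For 7 adipocyte markers the sums were 493, 9.79 and 131 CPM in MSA_ConA 1, 2 and 3, then 144, 108 and 9.19 CPM in ConA 1, 2 and 3, against 7.95 to 15.9 CPM in Control. In MSA_ConA 1 and ConA 1 these came from Cidec (442 and 52.5 CPM) and Fabp4 (49.9 and 90.4 CPM), with Adipoq, Plin1 and Lep at 0, while Adipoq measured 7.98 CPM in MSA_ConA 3 and 7.93 CPM in ConA 2. Their part in the levels of the members was not tested.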
